A study of Mus musculus with 6 samples.

Results

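The Notch receptors, their Jagged and Delta-like ligands and the Hes/Hey target genes are described here across the E, M and RE cells of EpH4, a near-normal mouse mammary epithelial cell line. The members were listed by name, with earlier results of these data known: the receptors *Notch1*, *Notch2*, *Notch3* and *Notch4*, the ligands *Jag1*, *Jag2* and *Dll1*, and the targets *Hes1*, *Hey1* and *Hey2*. All 10 were found among the 17428 genes of the table, and all 10 were among the 13893 genes tested. The E cells were grown in normal medium without TGFβ1. M cells had received TGFβ1, an inducer of epithelial-mesenchymal transition (EMT), for 7 days. RE cells had been returned to normal medium for another 4 days after those 7 days, which is the mesenchymal-epithelial transition (MET) arm. Each stage had 2 libraries from biological replicates, 6 in all, so that the p-values below rest on 2 cultures per stage of 1 cell line. The questions were which Notch genes differed after TGFβ1 (E vs. M), which differed after its removal (M vs. RE), and which of them had not returned to the E level (E vs. RE).

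Notch receptors are single-pass membrane proteins that are activated by ligands on neighbouring cells. After ligand binding, the receptor is cleaved by an ADAM protease and then by γ-secretase, and the released intracellular domain enters the nucleus, where it joins the DNA-binding protein RBPJ and a Mastermind-like co-activator to switch on genes such as the Hes and Hey repressors. In the mammary gland the pathway is known for its part in luminal and progenitor cell decisions, and in EMT it is known as a partner of TGFβ signalling. RNA levels of receptors and ligands do not measure the activity of the pathway, which depends on cleavage and cell contact.

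Levels are given as normalized coverage in ppm, that is, a gene's sequenced bases as parts of the library's bases after TMM scaling. The libraries held between 35782513 and 47928557 reads' worth of 50 bases, and 3 reads' worth (150 bases, or 0.0632 to 0.0787 ppm) was taken as the floor (a limit for counting error alone). A gene was called when its log2 fold change exceeded 1 in either direction and limma gave it an adjusted p below 0.01. The E replicates were less alike than those of the other stages: 1065 genes differed more than 2-fold between the E libraries, against 282 between the M and 224 between the RE libraries. This difference followed transcript length. In genes shorter than 2000 bases the second E library was lower than the first by a median of 0.28 on the log2 scale (log2 difference −0.28), and in genes of at least 8000 bases it was higher by 0.66. Differences from the E cells followed length as well, with a median that ran from −0.29 in the shortest to 0.48 in the longest class for M minus E and from −0.28 to 0.47 for RE minus E. Across 12973 genes of known length, the difference between replicates correlated with log2 length at a Pearson's r of 0.41 for the E, 0.02 for the M and −0.15 for the RE libraries. Since *Notch1*, *Notch2* and *Notch3* have long transcripts (9488, 10500 and 8016 bases), values that depend on the E libraries are given with and without each of them where a call changed. With 1 E library left, the spread in the fit comes from the M and RE replicates only. Those were closer, so a call from such a fit does not measure the spread of the E cultures. Among markers, the summed coverage of 7 luminal genes lay at 1700 to 2083 ppm in the E, 1414 to 1455 in the M and 931 to 983 in the RE libraries, and that of 6 basal genes at 317 to 382, 797 to 914 and 575 to 595. These sums hide single markers that moved otherwise. *Krt8* was highest in the M libraries (313 and 324 ppm), against the luminal sum. Most of the basal sum in the M libraries was *Krt14* (664 and 760 ppm). *Trp63* was instead lowest in the M libraries (44.5 and 55.2 ppm), and *Mylk* was highest in the RE libraries (95.9 and 77.3 ppm). In bulk RNA, fewer cells that express a gene and less RNA per cell cannot be told apart.

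**Figure D1:**
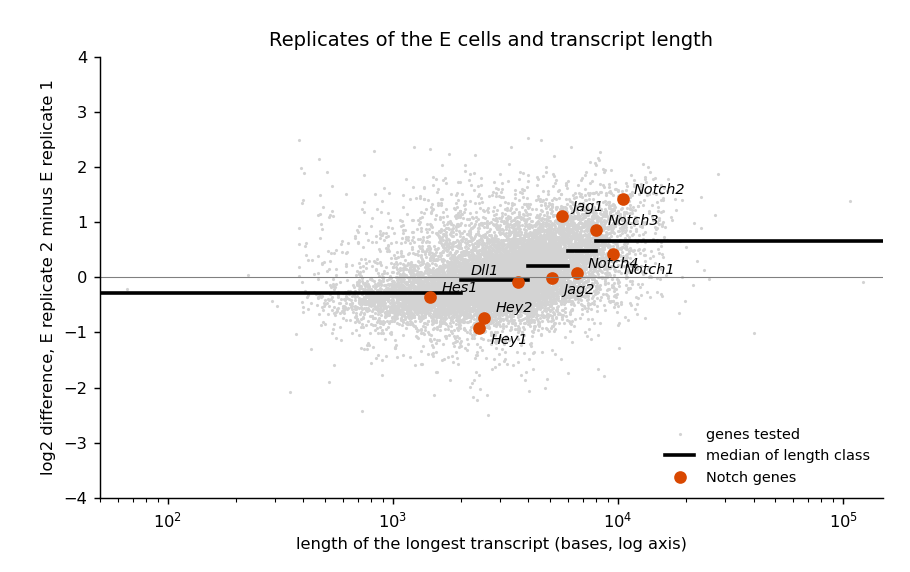
Log2 difference between the E replicates (second minus first, y axis) against the length of the longest transcript in bases (log x axis), with 1 grey point per gene tested, bars for the median of each length class and orange points for the Notch genes. The bars rise from −0.28 in the shortest to 0.66 in the longest class, and *Notch2* (1.42), *Jag1* (1.11) and *Notch3* (0.86) lie above the median of their classes. The other Notch genes lie below theirs, among them *Notch1* (0.42), *Notch4* (0.08) and *Jag2* (−0.01).

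Of the 10 Notch genes, 5 were called in E vs. M. *Notch4* and *Jag1* rose in the M cells, and *Notch1*, *Notch3* and *Dll1* fell. Among all genes tested 16.8% were called, 8.41% with higher and 8.35% with lower coverage after TGFβ1. In M vs. RE the same 5 genes were called, each in the opposite direction (*Notch1*, *Notch3* and *Dll1* higher and *Notch4* and *Jag1* lower in the RE cells), where 12.7% of all genes were called, 7.92% as higher and 4.79% as lower in the RE cells. Both comparisons use the M libraries. In E vs. RE, 2 members were called, *Notch4* as higher and *Dll1* as lower in the RE cells, against 9.08% of all genes (5.92% higher and 3.16% lower). The median absolute log2 fold change of the 10 genes was 1.18, 1.51 and 0.73 in the 3 comparisons in that order, and over all genes tested it was 0.49, 0.40 and 0.42. The libraries of the compared stages did not overlap for 8, 9 and 6 of the 10 genes, but this was also so for 71.1%, 78.6% and 67% of all genes (35.5% and 35.6% with both M libraries higher or lower than both E libraries, 37.5% and 41.1% with both RE libraries higher or lower than both M libraries, and 33.7% and 33.3% with both RE libraries higher or lower than both E libraries). When the libraries were scaled by their totals alone, the share of called genes that were higher in E vs. M was 30.5% in place of 50.2%, and in M vs. RE it was 73.8% in place of 62.3%, with median log2 fold changes over all genes of −0.29 and 0.18, but no call of a member changed. The count of members called changed in each of the 3 comparisons when 1 library was left out. The count over all genes tested changed as well, and these changes were not told apart. All 3 Hes/Hey targets were among the genes not called in any comparison.

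**Figure D2:**
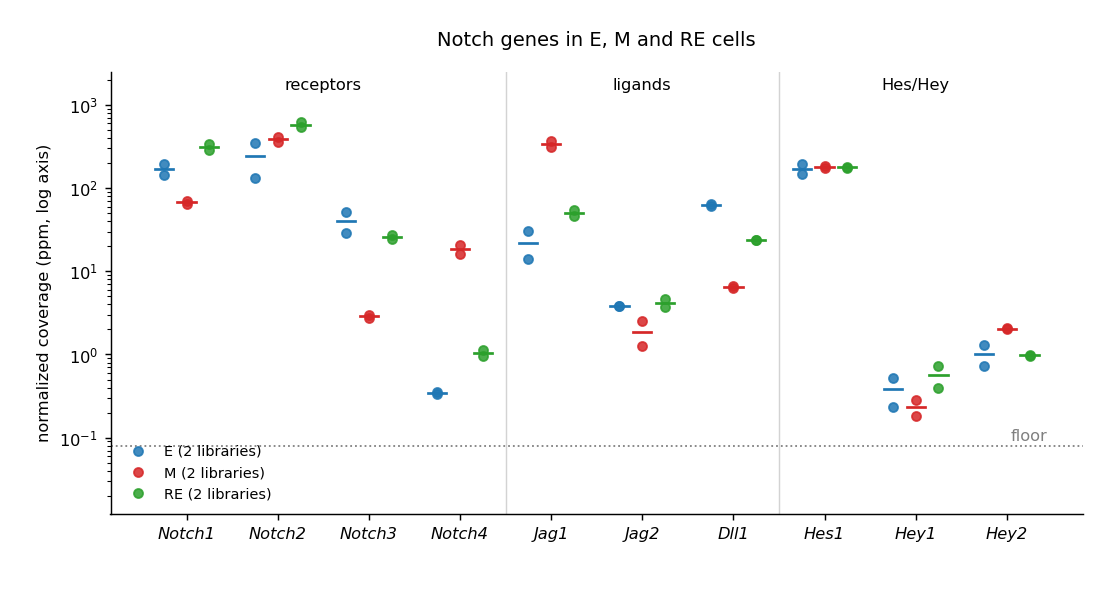
Normalized coverage (ppm, log y axis) of the 10 Notch genes in the 2 E, 2 M and 2 RE libraries, with a bar at the mean of each stage and a dotted line at the highest floor (0.0787 ppm). *Notch4* and *Jag1* are highest in the M cells, *Notch1*, *Notch3* and *Dll1* are lowest there, and the *Hes1* points lie close together in all stages.

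*Notch4* was the receptor with the largest difference between the E and M cells. It stood at 0.333 and 0.357 ppm in the E libraries, at 16.2 and 20.8 in the M libraries and at 0.959 and 1.13 in the RE libraries. The 3 stages did not overlap, with E lowest, RE next and M highest, and the lowest value (681 bases in an E library) was above the floor. Its mean was 53.6-fold that of the E cells in the M cells. The log2 fold change, which the added pseudocount of 0.1 ppm makes smaller, was 5.37 (standard error, SE, 0.24, limma adjusted p = 1.57e-05) in E vs. M and −4.02 (SE 0.24, adjusted p = 4.4e-05) in M vs. RE. The level in the RE cells was 3.02-fold that in the E cells (log2 fold change 1.36, SE 0.24, limma adjusted p = 0.00633). That last call did not hold without the first or the second M library (adjusted p = 0.0216 and 0.0219), without the first or the second RE library (0.0536 and 0.0561) and under 6 other settings: no filter (0.014), a fit of E and RE alone (0.0312), array weights (0.0248), a pseudocount of 1 ppm (log2 fold change 0.60), and values corrected for GC content and length without (1.09, adjusted p = 0.0105) and with the replicate number as a block (adjusted p = 0.0133).

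*Notch4* is best known from endothelium, and RNA of other cell types was therefore looked at beside it. Of 5 endothelial markers in the table, *Kdr* and *Tie1* were at or under the floor in all 6 libraries, and the summed coverage of the 5 was 0.373 to 0.623 ppm in the E, 2.70 to 2.75 in the M and 0.491 to 0.536 in the RE libraries. Most of the sum in the M cells was *Cdh5*, which encodes VE-cadherin. It was at 0 in both E libraries and at 2.32 and 2.09 ppm in the M libraries, and it was called as higher in the M cells (limma adjusted p = 0.000101). *Pecam1* was not called in any comparison, and *Tek* was highest in the E libraries (0.253 and 0.192 ppm). Haematopoietic markers summed to 6.82 to 10.7 ppm in the E, 33.02 to 37.2 in the M and 7.45 to 7.59 in the RE libraries, with 3 of 6 markers at the floor in every library, *Ptprc*, the pan-leukocyte CD45 gene, among them. *Csf1r*, a macrophage receptor gene, reached 25.7 and 30.1 ppm in the M libraries against 1.55 and 1.283 in the E libraries. *Cd68* was not called between E and M, at 5.20 and 9.25 ppm in the E and 7.17 and 6.81 in the M libraries. *Itgam* reached at most 0.206 ppm in any library. Fibroblast markers summed to 50.9 to 51.3, 475 to 583 and 279 to 365 ppm in the E, M and RE libraries, most of it *Col1a1* (31.6 and 33.04, 553 and 441, and 270 and 201 ppm). Among the others, *Dcn* was called as lower in the M cells (0.496 and 0.304 ppm in the E, 0 and 0.00684 in the M libraries), *Pdgfra* was highest in the RE libraries (91.7 and 75.9 ppm), and *Thy1* and *Dpt* were at the floor. The part of other cell types in the *Notch4* difference was not tested.

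The promoter of *Notch4* is shown because this gene and *Jag1* were the members that rose with TGFβ1, and those of *Jag1* and *Notch3* as examples, 1 in each direction, of called members that hold the 5-base SMAD site CAGAC, the DNA word that the SMAD proteins of TGFβ signalling bind. Each window is the 250 bases before the annotated start in RefSeq GRCm38.p6, written 5′ to 3′ on the strand of the gene, with the site in capitals on either strand (CAGAC or GTCTG). The build differs from that of the deposited table, and the windows were matched by symbol. A window was found for 8 of the 10 members, all but *Hes1* and *Hey1*. *Notch4* (chr17:34564045-34564294, plus strand) had no match, *Jag1* (chr2:137116521-137116770, minus strand) had 1 and *Notch3* (chr17:32166891-32167140, minus strand) had 2.
Notch4: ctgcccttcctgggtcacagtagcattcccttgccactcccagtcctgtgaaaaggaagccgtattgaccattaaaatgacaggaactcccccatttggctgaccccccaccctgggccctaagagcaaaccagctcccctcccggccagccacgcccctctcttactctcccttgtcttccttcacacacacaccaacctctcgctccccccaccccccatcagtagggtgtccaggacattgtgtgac
Jag1: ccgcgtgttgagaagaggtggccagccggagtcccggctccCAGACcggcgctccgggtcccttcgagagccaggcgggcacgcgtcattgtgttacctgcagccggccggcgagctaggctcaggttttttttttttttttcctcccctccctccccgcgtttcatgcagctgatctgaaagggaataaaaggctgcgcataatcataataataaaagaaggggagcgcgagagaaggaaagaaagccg
Notch3: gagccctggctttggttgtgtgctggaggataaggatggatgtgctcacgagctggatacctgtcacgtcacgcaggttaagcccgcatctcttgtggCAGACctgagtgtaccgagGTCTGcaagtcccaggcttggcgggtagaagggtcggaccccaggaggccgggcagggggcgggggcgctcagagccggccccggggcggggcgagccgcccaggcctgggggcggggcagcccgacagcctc

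In *Jag1* the site lay 205 to 209 bases before the start, and in *Notch3* the matches lay 148 to 152 and 129 to 133 bases before it, the latter on the opposite strand. The site is a common word: 42.2% of 32851 mouse promoter windows of the same length held at least 1 match. *Dll1*, which has 2 annotated windows (not shown), also held the site, with 1 match in the first window (118 to 122 bases before the start) and 2 in the second (143 to 147 and 84 to 88). Of the 5 members called in E vs. M, the site was thus found in *Jag1*, which rose, and in *Notch3* and *Dll1*, which fell, but not in *Notch4*, which rose, or *Notch1*, which fell. A match describes letters only, and no binding was measured here. The other words searched on both strands (the RBPJ core TGGGAA, the ZEB and SNAIL E-box CACCTG, the AP-1 word TGANTCA and the SMAD palindrome GTCTAGAC) were absent from the 3 windows shown, and 21.6%, 17.2%, 6.75% and 0.167% of all windows held them. The second *Dll1* window held 1 E-box and the only AP-1 match among the members' windows. For this window and that of *Notch3*, the bases just after the start were not found in an annotated transcript of the gene.

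*Notch3* changed the other way. It was at 28.5 and 51.7 ppm in the E libraries, 2.73 and 3.02 in the M libraries and 27.0 and 24.7 in the RE libraries. The M libraries were about an order of magnitude below all others, and the RE libraries lay just below the lower E library. The mean was 13.9-fold higher in the E than in the M cells (log2 fold change −3.70, SE 0.27, limma adjusted p = 9.08e-05) and rose 8.98-fold from M to RE (3.12, SE 0.27, adjusted p = 0.000202). Between E and RE it was not called (−0.57, limma adjusted p = 0.144). This value depends on the unequal E replicates, since *Notch3* was 1.81-fold higher in the second E library. Without the first E library it was called (−1.005), and without the second it was −0.16.

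*Notch1*, the main receptor of many epithelia, was lowest in the M and highest in the RE cells. The E libraries had 145 and 194 ppm, the M libraries 64.8 and 70.5, and the RE libraries 338 and 284, with no overlap between any 2 stages. It fell by 1.31 on the log2 scale in the M cells (SE 0.17, limma adjusted p = 0.00122) and rose by 2.19 from M to RE (SE 0.17, adjusted p = 0.000141). The fall in the M cells was not called without the first M library (−1.24, limma adjusted p = 0.0192) or without the second (−1.36, adjusted p = 0.0142). In the RE cells the mean was 1.83-fold that of the E cells, which was below the fold threshold and at the p threshold (log2 fold change 0.88, SE 0.17, limma adjusted p = 0.01003). Without the second E library it was called (1.07), and without the first it was 0.67.

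*Notch2* was not called in any comparison, and of the 10 members it had the widest gap between the E replicates. The values were 131 and 351 ppm in the E libraries, 359 and 414 in the M libraries and 626 and 536 in the RE libraries. The stages did not overlap and stood in the order E, M and RE, but the second E library was close to the first M library. The E replicates differed 2.68-fold, more than 97.7% of the genes tested did. The log2 fold changes were 0.85 (SE 0.40, limma adjusted p = 0.127) in E vs. M, 0.59 (adjusted p = 0.304) in M vs. RE and 1.43 (adjusted p = 0.0333) in E vs. RE. Without the second E library *Notch2* was called in E vs. M (1.53) and in E vs. RE (2.13), but these fits hold no spread of the E cultures. Array weights also gave a call in E vs. RE (limma adjusted p = 0.00604). Without the first E library the values were 0.13 and 0.72, and neither was called. With the trend on GC content and length removed, *Notch2* stood at 0.41 in E vs. M, while *Notch1*, *Notch3* and *Notch4* kept their calls in E vs. M at −1.71, −4.03 and 5.12. In E vs. RE the same removal took *Notch1* from 0.88 to 0.49 (limma adjusted p = 0.0217), *Notch2* from 1.43 to 0.998 (0.00423) and *Notch3* from −0.57 to −0.91 (0.00196), none of them called.

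**Figure D3:**
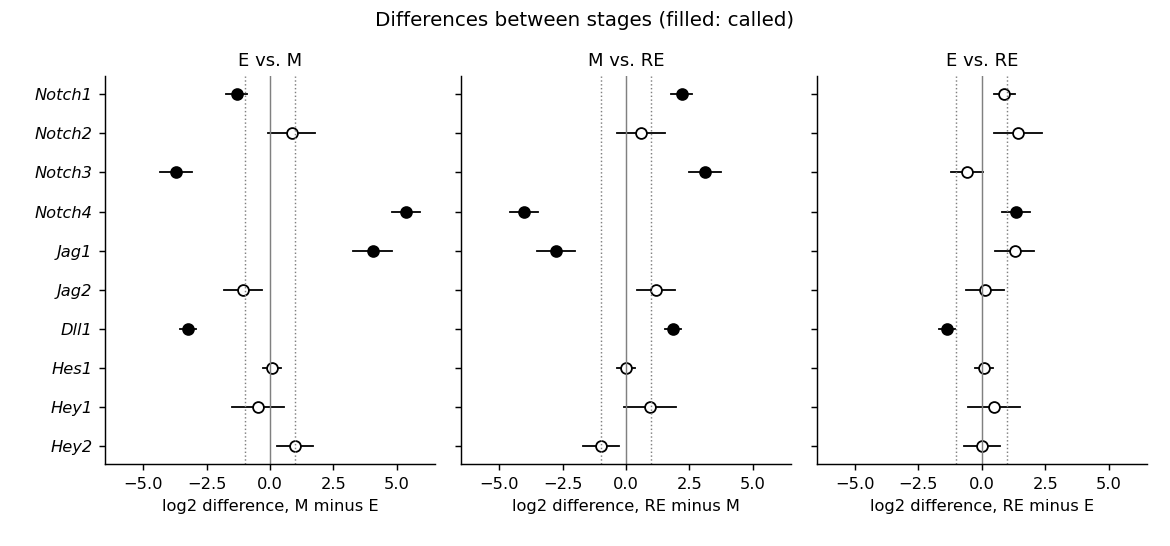
Log2 differences (x axes) of the 10 Notch genes in E vs. M, M vs. RE and E vs. RE from the limma fit, with 95% confidence intervals, filled points for called genes and dotted lines at 1 and −1. *Notch4* and *Jag1* lie on the right in E vs. M and on the left in M vs. RE, and *Notch1*, *Notch3* and *Dll1* the other way round.

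Among the ligands, *Jag1* rose and *Dll1* fell in the M cells. *Jag1* encodes Jagged1 and is known as a gene that TGFβ raises in epithelial cells. Its coverage was 13.9 and 30.1 ppm in the E libraries, 315 and 367 in the M libraries and 54.2 and 46.5 in the RE libraries. The stages did not overlap, with the M libraries far above the rest and the RE libraries above the E libraries. The mean was 15.5-fold that of the E cells in the M cells (log2 fold change 4.05, SE 0.32, limma adjusted p = 0.000133) and 6.78-fold higher in the M than in the RE cells (−2.76, SE 0.32, adjusted p = 0.000877). The fall from M to RE was not called without the second M library (limma adjusted p = 0.0114), without the first RE library (0.0116) or without the second (0.0136), at log2 fold changes of −2.65, −2.86 and −2.64. It kept its call without the first or the second E library (−2.76 and −2.74) and without the first M library (−2.88). When only the M and RE libraries were fitted, with both replicates of each, the fall was called as well (−2.76, limma adjusted p = 5.74e-10). In the RE cells *Jag1* was 2.29-fold the E level, which was not called (1.29, limma adjusted p = 0.0234). The E replicates differed 2.17-fold. Without the second E library the difference between RE and E was called (1.83), and without the first it was 0.73. It was also called with array weights (limma adjusted p = 0.00562). With the trend on GC content and length removed it was 0.93 (limma adjusted p = 0.00908), below the fold threshold and not called.

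*Dll1*, which encodes the Delta-like 1 ligand, had the closest replicates of the called members. It was at 64.0 and 60.1 ppm in the E libraries, 6.28 and 6.73 in the M libraries and 23.7 and 23.8 in the RE libraries. The order was E, RE and M with no overlap. It was 9.54-fold higher in the E than in the M cells (log2 fold change −3.23, SE 0.14, limma adjusted p = 1.38e-05) and rose 3.65-fold from M to RE (1.85, SE 0.14, adjusted p = 9.83e-05). Unlike *Notch3*, which was not called between these stages, *Dll1* was called as lower in the RE than in the E cells (−1.38, SE 0.14, limma adjusted p = 0.000897). Whether the 2 genes differed in this was not tested. The call of *Dll1* did not hold without the first RE library (limma adjusted p = 0.0248) or without the second (0.0181), with log2 fold changes of −1.38 in both cases.

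*Jag2*, which encodes the other Jagged ligand, was low and not called. Its values were 3.82 and 3.80 ppm in the E libraries, 1.26 and 2.50 in the M libraries and 4.65 and 3.69 in the RE libraries. Both M libraries lay below the others, and the E and RE libraries overlapped. The log2 fold change of −1.06 in E vs. M (SE 0.32, limma adjusted p = 0.0341) and that of 1.18 in M vs. RE (SE 0.32, adjusted p = 0.0296) were past the fold threshold but not the p threshold. In M vs. RE *Jag2* was called in a fit of these stages alone (limma adjusted p = 0.00335), with array weights (0.00219), and without the first or the second E library (0.0028 and 0.00222). Between E and RE it stood at 0.12 (95% confidence interval −0.64 to 0.87, limma adjusted p = 0.805).

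Levels of different genes can be compared only per length, and coverage per kb of the longest annotated transcript was used for this. Summed over the 4 receptors it was 31.4 and 60.4 ppm per kb in the E libraries, 43.8 and 50.4 in the M libraries and 98.8 and 84.2 in the RE libraries. The sum in the RE cells was above that of every other library, and the E and M libraries overlapped. All 4 receptors have transcripts of more than 6000 bases. In genes of 6000 to 8000 and of at least 8000 bases, the median RE minus E was 0.39 and 0.47. The sums and shares were not corrected for this trend, so that their differences from the E libraries include it. *Notch1* and *Notch2* together made up most of the receptor sum in every library. The share of *Notch1* was 48.8% and 33.9% in the E, 15.6% and 14.7% in the M and 36.1% and 35.5% in the RE libraries. That of *Notch2* was 39.7% and 55.4%, 78.0% and 78.3%, and 60.3% and 60.6%. *Notch3* held 11.3% and 10.7% of the receptor coverage per kb in the E libraries, 0.779% and 0.747% in the M libraries and 3.41% and 3.66% in the RE libraries. Despite its rise, *Notch4* held 5.62% and 6.26% in the M libraries, with at most 0.204% in any E or RE library. Per kb, *Notch3* exceeded *Notch4* by 70.3- and 119-fold in the E and by 23.1- and 17.9-fold in the RE libraries, and *Notch4* exceeded *Notch3* by 7.21- and 8.38-fold in the M libraries.

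The make-up of the 3 ligands turned over more fully. Their sum was 21.1 and 22.9 ppm per kb in the E, 58.1 and 67.8 in the M and 17.2 and 15.7 in the RE libraries. In the E libraries 84.7% and 73.3% of it was *Dll1*, and in the M libraries 96.6% and 96.5% was *Jag1*. The RE libraries lay between, with 56.2% and 53.0% *Jag1* and 38.5% and 42.4% *Dll1*. The ratio of *Jag1* to *Dll1* per kb was therefore 0.138 and 0.320 in the E, 32.0 and 34.9 in the M and 1.46 and 1.25 in the RE libraries. *Jag2* stayed between 0.423% and 5.30% of the ligand coverage in all libraries. These shares and ratios are given as descriptions and were not tested.

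**Figure D4:**
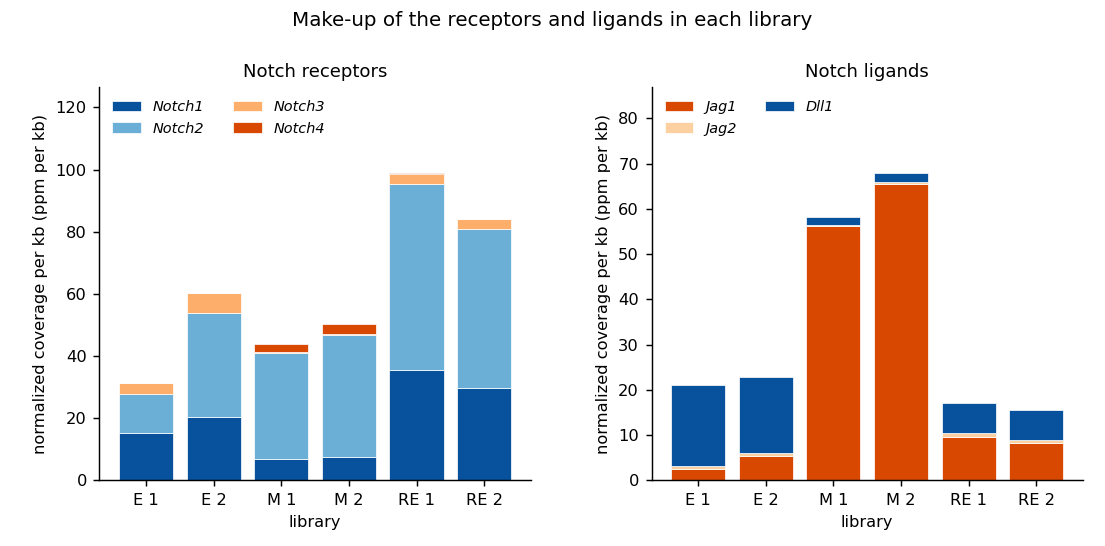
Normalized coverage per kb of the longest transcript (ppm per kb, y axes starting at 0), stacked by gene for the receptors (left) and the ligands (right) in each of the 6 libraries. *Jag1* fills 96.6% and 96.5% of the ligand bars of the M libraries and *Dll1* most of those of the E libraries, and *Notch4* is visible only in the receptor bars of the M libraries.

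The Hes/Hey targets, which encode basic helix-loop-helix repressors, showed no called difference. *Hes1* was abundant and nearly level, at 192 and 149 ppm in the E libraries, 183 and 176 in the M libraries and 177 and 181 in the RE libraries. All stages overlapped, and the widest gap was that between the E replicates. The log2 fold changes were 0.08 (95% confidence interval −0.27 to 0.44, limma adjusted p = 0.675) in E vs. M, −0.01 (−0.36 to 0.35, adjusted p = 0.982) in M vs. RE and 0.08 (−0.27 to 0.43, adjusted p = 0.714) in E vs. RE. Each interval lies within the 2-fold threshold in both directions. The sign of these small values depended on the setting, as when the library totals alone were used for scaling (−0.21 and 0.21 in E vs. M and M vs. RE) or when the second E library was left out (−0.13 in E vs. M and −0.12 in E vs. RE). With the trend on GC content and length removed, *Hes1*, a transcript of 1468 bases, stood at 0.34 in E vs. M (limma adjusted p = 0.0345) and 0.28 in E vs. RE (0.0799), below the fold threshold.

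*Hey2* was low, at 1.29 and 0.735 ppm in the E libraries, 2.02 and 2.06 in the M libraries and 0.996 and 0.960 in the RE libraries. Both M libraries were above all others, with a log2 fold change of 0.99 (SE 0.30, limma adjusted p = 0.0334) in E vs. M and −0.99 (SE 0.30, adjusted p = 0.0417) in M vs. RE, so that neither threshold was passed. Without the first E library, the higher of the 2, *Hey2* was called in E vs. M (1.35), and without the second it was 0.60. Its promoter window (RefSeq GRCm38.p6, chr10:30842784-30843033, minus strand) is shown because it held the RBPJ core TGGGAA, the word that the Notch transcription complex reads. It was the only one of the 8 members' windows to do so, but *Hes1* and *Hey1* had no window and were not searched. The match lies on the opposite strand, as TTCCCA in capitals, 202 to 207 bases before the start.
Hey2: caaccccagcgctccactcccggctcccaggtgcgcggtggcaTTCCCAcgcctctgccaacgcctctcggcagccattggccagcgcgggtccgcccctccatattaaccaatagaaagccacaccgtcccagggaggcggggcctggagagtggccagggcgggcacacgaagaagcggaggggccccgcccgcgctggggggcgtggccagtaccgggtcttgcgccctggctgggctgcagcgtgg

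The same window also held a match to the E-box CACCTG, 218 to 223 bases before the start. *Hey1* was close to the floor in every stage, at 0.528 and 0.233 ppm in the E libraries, 0.280 and 0.183 in the M libraries and 0.397 and 0.722 in the RE libraries. These values stand for 375 to 1592 bases, and 1 E and 1 M library were below the filter of 500 bases. Only M and RE did not overlap, and the log2 fold changes of −0.48, 0.96 and 0.48 were not called (adjusted p = 0.411, 0.138 and 0.435 by limma). At this depth a difference of *Hey1* could not be shown beyond the spread of the replicates. Per kb, *Hes1* made up at least 99.3% of the coverage of the 3 targets in every library.

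The other genes of the pathway were taken from a list of 54, of which 49 were in the table and 43 were tested. *Dlk1*, *Neurl1b*, *Cir1*, *Hes5* and *Heyl* were not analysed here. In E vs. M, 7 of the 43 (16.3%) were called, 4 upwards and 3 downwards. In M vs. RE it was 4 (9.3%), all upwards, and in E vs. RE 2 (4.65%), again upwards. These shares lie close to or below those of all genes tested (16.8%, 12.7% and 9.08%). In all, 10 genes were called in at least 1 comparison and 33 in none. Of the 7 γ-secretase subunits and the 4 receptor glycosyltransferases tested, 0 were called in any comparison.

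**Figure D5:**
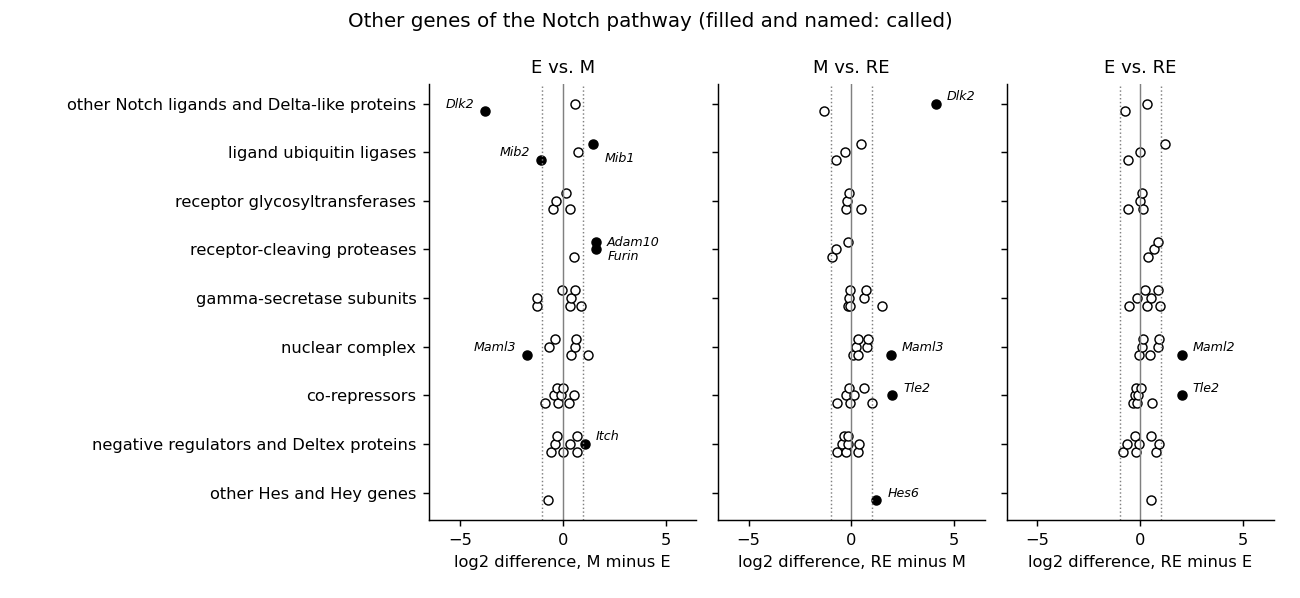
Log2 differences (x axes) of the 43 other Notch pathway genes tested, by role, in E vs. M, M vs. RE and E vs. RE, with filled and named points for called genes and dotted lines at 1 and −1. Most points lie between the dotted lines, and *Dlk2* lies farthest from 0 in E vs. M (−3.80) and M vs. RE (4.12).

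*Dlk2*, which encodes a Delta-like membrane protein without the domain that activates Notch receptors, fell in the M cells and rose again in the RE cells. It was at 26.2 and 31.2 ppm in the E libraries, 1.67 and 2.30 in the M libraries and 34.2 and 37.3 in the RE libraries, with the M libraries below all others. The log2 fold change was −3.80 (limma adjusted p = 2.54e-05) in E vs. M, 4.12 (adjusted p = 2.18e-05) in M vs. RE and 0.32 (adjusted p = 0.249) in E vs. RE. The ligases that ubiquitinate Notch ligands for their internalization split in direction: *Mib1* rose from 56.7 and 96.9 ppm in the E to 199 and 218 in the M libraries (1.49, limma adjusted p = 0.00274), and *Mib2* fell from 39.5 and 44.8 to 19.6 and 20.7 (−1.06, adjusted p = 0.00104). Both proteases called in E vs. M rose. *Adam10*, which makes the first activating cut in the receptor, went from 91.3 and 112 ppm to 310 and 306 (1.61, limma adjusted p = 0.000235), and *Furin*, which cleaves the receptor during its maturation, from 99.95 and 128 to 346 and 359 (1.64, adjusted p = 0.00024).

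Of the 7 genes of the nuclear complex, *Maml3* and *Maml2*, which encode Mastermind-like co-activators, were called. *Maml3* fell in the M cells, from 15.4 and 31.8 ppm to 5.74 and 7.33 (log2 fold change −1.75, limma adjusted p = 0.0047), and rose to 23.3 and 25.7 in the RE cells (1.90, adjusted p = 0.00426). *Maml2* was higher in the RE libraries (64.7 and 59.7 ppm) than in the E libraries (9.57 and 24.5), with a log2 fold change of 2.01 (limma adjusted p = 0.00821), which was 1.33 without the first and 2.67 without the second E library. *Rbpj*, singled out after its values were seen because it binds the DNA, was at 4.94 and 8.03 ppm in the E, 3.42 and 4.39 in the M and 6.58 and 6.64 in the RE libraries and was not called (−0.69, limma adjusted p = 0.0726, in E vs. M). *Tle2*, a Groucho family co-repressor gene, was level in E and M, at 11.2 to 11.9 ppm, and stood at 56.1 and 39.0 in the RE libraries (1.99, limma adjusted p = 0.000352, against M, and 2.02, adjusted p = 0.000859, against E). *Itch*, whose product is a ubiquitin ligase that acts on Notch, rose from 86.4 and 110 ppm in the E to 212 and 202 in the M libraries (1.09, limma adjusted p = 0.00153). *Hes6*, which encodes an inhibitor of HES1, rose from 6.70 and 6.72 ppm in the M to 16.3 and 15.1 in the RE libraries (1.21, limma adjusted p = 0.00607).

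Several of these calls were close to a threshold. With the trend on GC content and length removed, *Mib1* (0.95) and *Itch* (0.76) were not called in E vs. M, and *Itch* was not called without the first E library (0.91) nor *Mib2* without the second (log2 fold change −0.9985). Without either M library, *Mib1*, *Mib2*, *Maml3* and *Itch* were not called in E vs. M (adjusted p from 0.016 to 0.044 by limma), nor *Maml3* and *Hes6* in M vs. RE (0.0232 to 0.054), nor *Maml2* in E vs. RE (0.0219 to 0.022). Without either RE library, *Mib1* and *Maml3* in E vs. M (0.0102 to 0.0155), *Maml3* and *Hes6* in M vs. RE (0.0387 to 0.0664) and *Maml2* in E vs. RE (0.0543 to 0.0819) were not called, and *Tle2* in E vs. RE was not called without the first RE library (0.0166). *Dlk2*, *Furin* and *Adam10* kept all of their calls when any 1 library was left out. In a fit of the 2 stages alone, *Mib1* and *Maml3* in E vs. M (0.0101 and 0.0158) and *Maml2* in E vs. RE (0.0284) were not called, and without the filter *Hes6* and *Maml2* were not (0.011 and 0.0154). With library totals, *Itch* (log2 fold change 0.79) was not called in E vs. M. The number of other pathway genes called went to 3 in E vs. M without either M library, to 11 there without the second E library and to 2 in M vs. RE without any 1 M or RE library. In E vs. RE it was 4 without the first and 7 without the second E library, 1 without either M library or the second RE library, and 0 without the first RE library, where 0.0654% of all genes were called.

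For each called member, the 2 genes whose centred log2 values were nearest over the 6 libraries, among the 10096 genes whose log2 values averaged 2 or more, are given as a description. *Notch1* was nearest to *Lrch1* and *Stat5a* (root-mean-square differences of 0.077 and 0.081 on the log2 scale). *Stat5a*, a transcription factor gene of mammary differentiation, was at 39.4 and 45.1 ppm in the E, 17.0 and 17.5 in the M and 81.4 and 67.1 in the RE libraries. *Notch3* was nearest to *Atp8b1* (0.13) and *Trpv3* (0.15), and *Dll1* to *Rapgef3* (0.10) and *Bspry* (0.11). *Jag1* was nearest to *Lrp4* (0.22) and *Glipr2* (0.28). Among these candidates *Notch4* was nearest to *Wisp1*, a matricellular protein gene (0.43), and *Has2*, a hyaluronan synthase gene (0.43). Its own log2 values averaged less than 2, so that genes at its level were not among the candidates. *Has2* stood at 6.25 and 5.45 ppm in the E, 191 and 166 in the M and 19.1 and 23.8 in the RE libraries. All points of this measure share the same 6 libraries, so that it does not separate 2 genes that both follow the stage.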

How the data were processed

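RNA of E, M and RE cells of EpH4 was sequenced by the authors (2 libraries per stage), who mapped unique reads to NCBI-m37 with Bowtie and TopHat2 and named edgeR for their tests; versions, annotation and strand of the per-gene step are not given in the sources used here. The deposited values are coverage (signal), that is, sequenced bases per gene, not read counts: in each library 44.8% to 48.4% of the values from 1 to 400 were multiples of 50. The edgeR test was therefore not run.

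Coverage was scaled with unweighted TMM (30% and 5% trimmed; factors 0.875 to 1.12). A gene was kept where 2 libraries or more held 500 bases (10 reads' worth). In R 4.3.3, limma 3.58.1 was fitted to log2(ppm + 0.1) with a trend, all 6 libraries and group only, with Benjamini-Hochberg adjustment over all genes tested. The steps were tested on simulated data. Positive log2 fold changes mean higher in M (E vs. M) or in RE. Replicate precision is limited by 2 libraries per stage.

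Members and lists were chosen with earlier results of these data known. Named genes were the 10 members, other pathway genes called in at least 1 comparison (up to 4 per role), and for each called member the 2 genes of nearest pattern. Some listed genes were found under an older symbol, and an item of the pathway list is not reported here and was left out of its counts. Lengths and GC content came from a newer annotation and were matched by symbol for 93.4% of genes tested. In the RefSeq annotation of GRCm38.p6, 6 members (*Notch1*, *Notch2*, *Notch3*, *Jag2*, *Hey1* and *Hey2*) overlap genes that are not in the table, whose reads could count with them. Alternatives were 14 settings (scaling, filters, thresholds, pseudocounts, groups fitted, array weights, replicate block, GC and length trend) and leaving out each library. Of these, TMM over all genes with coverage was added after seeing the data. Replicate numbers come from the labels.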

Additional observations from a re-analysis of the deposited data

How the results depend on the processing

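Under the other settings, the called values of the members kept their call in 162 cases and lost it in the 6 of *Notch4* in E vs. RE, and none changed sign. These cases include the adjusted p of 0.05 and the 1.5-fold threshold. Both only loosen the cutoffs of the same fit, so that no called value could lose its call there. With 1 library left out, where the lone library of a stage is assumed to vary like the others, 61 kept it and 11 lost it. The labels do not say whether same-numbered cultures belong together. Same-numbered deviations correlated at 0.27 (E and M), 0.058 (E and RE) and 0.12 (M and RE). With the replicate block no member's call changed (5, 5 and 2 called, and 8, 4 and 2 other pathway genes). In E vs. RE, 4 members were called at an adjusted p of 0.05, and 1 each with no filter, in a fit of the 2 groups alone, at a pseudocount of 1 and with the GC and length trend removed, with or without the block. Of the other pathway genes, a 1.5-fold threshold called 11 (E vs. M), 9 (M vs. RE) and 7 (E vs. RE), no filter called 1 (E vs. RE), and 1 (E vs. RE) was called in a fit of the 2 groups alone. Leaving out 1 library gave 4 to 6 members in E vs. M, 4 to 6 in M vs. RE and 0 to 5 in E vs. RE, and 3 to 11, 2 to 6 and 0 to 7 other pathway genes. These fits also differ in how many genes of the whole table they call: in E vs. RE 9 without the first RE library, 462 in a fit of the 2 groups alone and 1262 as reported. The cause was not tested.

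Small values changed sign: *Hes1* in M vs. RE to 0.0184 with median-of-ratios factors, 0.21 with library totals and 0.00196 with TMM over all genes (chosen after seeing the data), *Hes1* in E vs. M to −0.21 and in E vs. RE to −0.00475 with library totals, *Hey2* in E vs. RE to −0.0745 with library totals and −0.0101 at a pseudocount of 1, and *Jag2* in E vs. RE to −0.0499 with the trend removed, with or without the block. Leaving out 1 library, *Hes1* ran from −0.13 to 0.26 in E vs. M, −0.0398 to 0.0188 in M vs. RE and −0.12 to 0.26 in E vs. RE, *Hey2* from −0.38 to 0.36 and *Jag2* from −0.0410 to 0.28 in E vs. RE. *Hey1* has no value with the filter in every library. The low coverage of *Hey1* limits its values, as does the spread of its replicates.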
